A study of Mus musculus with 16 samples.

Results

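The olfactory receptors of mouse chromosome 2 numbered from Olfr1130 upwards form 148 of the 1080 intact receptor genes measured and of 19572 tested features. They were taken as every array feature whose identifier places it on chromosome 2 and whose symbol is Olfr followed by nothing but a number at or above that of Olfr1130, so pseudogenes (-ps) stayed out. Another 134 intact receptors of the chromosome have lower numbers. All 148 matched a RefSeq gene by Entrez identifier. In RefSeq's order of genes they lie in 2 runs that no protein-coding gene other than a receptor interrupts. The first run holds 113 members from Olfr1130 to Olfr1274, and the second holds 35 from Olfr1275 to Olfr1318. The number is a limit of naming, and whether it sets off a biological group was not tested. Olfr1129, just outside it, differed between the sorted fractions by 1.39 log2 units in odor and 1.52 in vehicle pools. Just inside it, Olfr1130 differed by 2.00 and 2.16, and Olfr1131 by 0.35 and 0.33.

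The series, named a Kentucky assay in its labels, used C57BL/6 mice with the S100a5-tauGFP reporter, in which S100a5, a gene of olfactory sensory neurons (OSNs) that depends on their activity, drives a green fluorescent protein. The animals, 24 of both sexes and 7 to 12 weeks old, were each kept in clean flowing air for 40 h, and from 26 h on received brief pulses of either the odorant or filtered air. The 12 odor mice smelled a mixture of 2 aldehydes, undecanal and bourgeonal, and the 12 vehicle mice filtered air alone. Cells of the olfactory mucosa from pools of 3 mice were sorted by fluorescence, and both fractions of each of the 8 pools were measured on Clariom S arrays. By title, the 4 groups of 4 arrays each are GFP− and GFP+ cells of odor pools, and GFP− and GFP+ cells of vehicle pools. Every group carries the reporter, and no group without it is used here. A replicate is a pool of mice, so single animals cannot be followed.

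The titles and the cell type characteristics of the samples give opposite fluorescence on all 16 arrays, and the titles are used here as names only. S100a5 itself, the gene that drives the reporter, had the higher signal in the titled GFP− cells of each of the 8 pools, which goes against the titles. Its fitted difference was 1.31 ± 0.20 log2 units in odor pools (SE, limma adjusted p = 0.000155) and 1.00 ± 0.20 in vehicle pools (adjusted p = 0.00186). Every direction below is titled GFP− minus titled GFP+, and would read as fluorescent minus non-fluorescent cells if the characteristics hold. The other cells in the sort also differed between fractions: all 11 neutrophil markers, all 14 other leukocyte markers measured and all 9 cell cycle genes measured were lower in titled GFP− cells, with odor and with vehicle. The summed neutrophil signal was 8.91 to 9.95 on odor arrays titled GFP− and 18.43 to 19.48 on odor arrays titled GFP+, and 8.92 to 9.33 and 18.48 to 19.76 on the vehicle arrays titled GFP− and GFP+ (log2 of the sum). Immature OSN markers were lower in 8 of 15 in both treatments, and of 18 mature OSN markers 6 were higher and 2 lower with odor, and 5 and 2 with vehicle, with medians of 0.19 and 0.22. Sustentacular markers were lower in 6 of 9 with odor and 5 of 9 with vehicle, and basal cell markers in 4 of 8 measured with each. Omp, a marker of mature OSNs, averaged 18.43 to 18.60 in the 4 groups. The part of these other cells in the receptor differences was not tested. In bulk samples such as these, fewer cells of a type and less RNA per cell cannot be told apart. Over all tested features, arrays of 1 group correlated at 0.979 to 0.995, least among odor arrays titled GFP+. In that group replicate 1 had a receptor median of 7.94, below the 8.71 to 8.92 of the other three.

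Each mature OSN expresses a single olfactory receptor gene, chosen from the whole repertoire and from only one parental allele, and keeps the others silent. The receptor is a G protein-coupled receptor of the ciliary membrane that detects odorants, and it also guides the axon to its glomerulus in the olfactory bulb. A receptor's signal in sorted cells therefore depends on how many neurons chose it and how much each transcribes. Receptor genes lie in clusters that arose by tandem duplication. Within a cluster, enhancers bound by the factors Lhx2 and Ebf act over long distances and across chromosomes. The MOR name groups receptors into families by the similarity of their proteins, and the families on chromosome 2 belong to class II, the receptors typical of land vertebrates. In the assay, receptors whose neurons were activated by the odorant are sought as those that shift between the fluorescent and non-fluorescent fractions.

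The array gives 1 log2 signal per feature. A member was called above background where its signal exceeded the 95th percentile of the array's 23 background probe sets graded by GC content, which lay at 6.87 to 7.42. By that measure 80 of 148 members were above background on all 16 arrays, 57 on 1 to 15 arrays and 11 on none, with 106 to 128 of them above it on any one array. Vomeronasal receptors, which these neurons should lack, served as a check: 0.312 to 0.623% of 321 passed. The members' median signal averaged 9.79 on odor arrays titled GFP− and 9.30 on odor arrays titled GFP+, and 9.93 and 9.52 on the vehicle arrays titled GFP− and GFP+. Members on no array above background were Olfr1136, Olfr1141, Olfr1145, Olfr1158, Olfr1164, Olfr1188, Olfr1214, Olfr1230, Olfr1287, Olfr1289 and Olfr1314. Olfr1506 and Olfr1565 have identical values on all 16 arrays and are 1 measurement, although both count among the 148. The annotated span of Olfr1280 overlaps Olfr1281, Olfr1282 and Olfr1283, so these 4 features may share transcripts.

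The members split between the sorted fractions in both directions. In odor pools 50 of 148 (33.8%) were higher and 32 (21.6%) lower in titled GFP− cells, where 12.2% and 9.98% of all tested features passed. In vehicle pools 51 (34.5%) were higher and 31 (20.9%) lower, where 7.05% and 9.82% of all features passed. Here a call is an adjusted p under 0.05 in limma's moderated test with Benjamini-Hochberg adjustment over all 19572 features. The counts depended on the scaling between arrays: with arrays centred on their receptor median 36 were higher and 40 lower in odor pools, and 42 and 36 in vehicle pools. Without odor replicate 1, 44 were higher and 28 lower in odor pools. The shares of all features called in these other settings are not given here. Receptors elsewhere had like shares, with 293 higher and 154 lower of 798 in odor pools and 256 and 171 in vehicle pools. Chromosome 2 receptors with lower numbers had 63 higher and 18 lower of 134 in odor pools, and 53 and 20 in vehicle pools. The members' median difference was 0.39 in odor and 0.37 in vehicle pools, against 0.14 and 0.13 over all tested features. It was 0.91 and 0.85 over the lower-numbered chromosome 2 receptors, and the difference between these lists was not tested. With member values below an array's background set at that level, the members' medians were 0.15 and 0.18.

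The sizes were unequal at the 2 ends, which was not particular to the members. Receptors elsewhere ran from −8.43 to 5.52 in odor and from −8.45 to 5.59 in vehicle pools. Lower-numbered chromosome 2 receptors were less unequal, from −5.97 to 5.11 and from −5.88 to 5.07. Called members had a median difference of 2.01 upward and −2.95 downward in odor pools, and of 1.94 and −2.98 in vehicle pools. With dim values at background these were 1.80 and −2.47, and 1.89 and −2.57. Fitted differences beyond 4 log2 units were found in 6 lower members in each treatment, and in 1 higher member in vehicle pools only, Olfr1132. With dim values at background, Olfr1132 and, among the lower members, Olfr1184 no longer exceeded 4. Over single pools, 59 members were higher and 34 lower in titled GFP− cells of all 8 pools, where 15.9% and 11.5% of all features were. In 32 higher and 20 lower members the difference exceeded 1 log2 unit in every pool, and in 6 and 11 it exceeded 2. These counts use the values as measured, including those below background. Olfr1279, among the 20, was above background only on 1 odor array titled GFP+. In vehicle pools 2 called members, Olfr1188 and Olfr1279, were below background in both fractions. The shares of all features past these per-pool limits were not counted. Fitted differences over 1 in size were found in 60.1% of members in odor and 60.8% in vehicle pools. The same held for 61.3% and 58.9% of receptors elsewhere, and for 10.5% and 10.3% of all tested features.

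**Figure D1:**
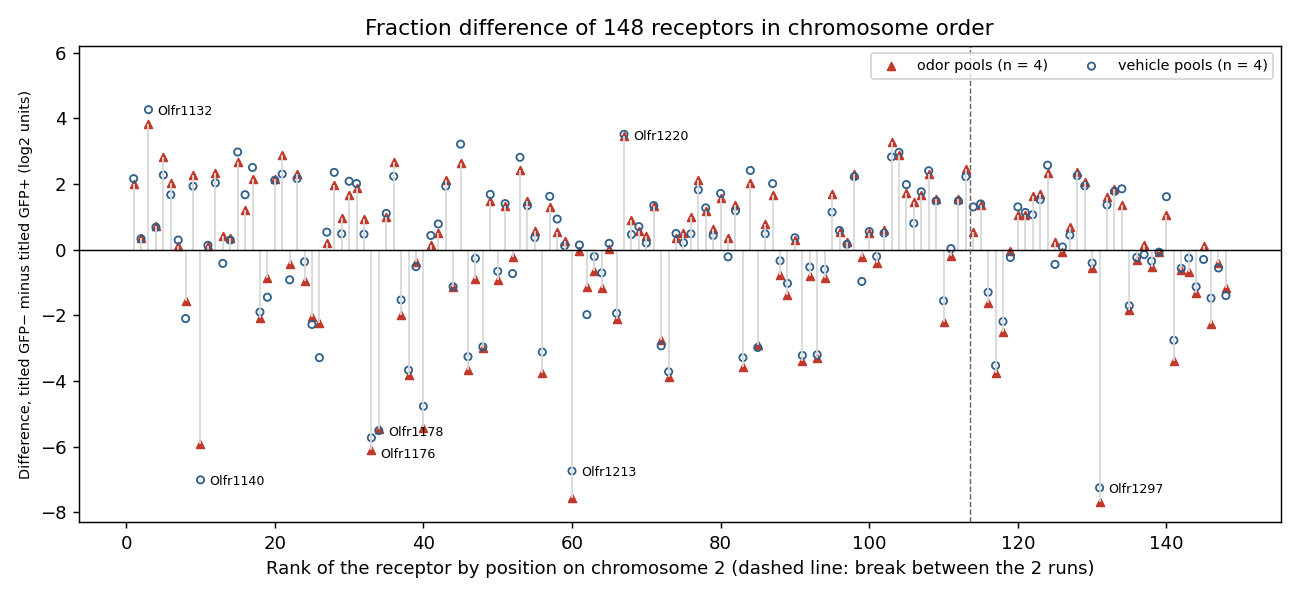
Fraction difference (y axis, log2 units, titled GFP− minus titled GFP+) of the 148 receptors in their order along chromosome 2 (x axis, rank), as filled triangles for odor pools and open circles for vehicle pools, n = 4 pools each. High and low receptors are intermixed along both runs, and the differences run from −7.68 to 3.81 in odor and from −7.25 to 4.26 in vehicle pools.

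The lowest member in the titled GFP− fraction was Olfr1297, a MOR248 receptor of the second run. It read 6.08, 6.55, 7.37 and 8.14 on the odor arrays titled GFP−, against 14.49, 14.73, 14.81 and 14.85 on the odor arrays titled GFP+. On vehicle arrays it read 7.70, 7.94, 6.89 and 8.11 in the titled GFP− fraction, against 15.36, 14.79, 14.81 and 14.66 in the titled GFP+ fraction. The groups were far apart in both treatments, with every array titled GFP− more than 6 log2 units below its pool's other fraction. The fitted difference was −7.68 ± 0.35 in odor pools (adjusted p = 2.31e-10) and −7.25 ± 0.35 in vehicle pools (adjusted p = 4.58e-10). Since 1 of 4 odor arrays and 3 of 4 vehicle arrays titled GFP− were above background, folds are given with dimmer values set at each array's background level: 154-fold lower with odor and 139-fold lower with vehicle.

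Olfr1140, a MOR177 receptor of the first run, was next in vehicle pools. Its titled GFP− values of 5.48, 6.19, 4.30 and 7.48 in vehicle pools stood against 12.96, 12.87, 12.32 and 13.32 in the titled GFP+ fraction. In odor pools it read 6.74, 6.36, 6.49 and 7.19 in the titled GFP− fraction, all below background, against 12.10, 12.79, 13.19 and 12.37 in the titled GFP+ fraction. The fractions did not overlap, and its difference was −5.91 ± 0.47 in odor pools (at least 41.4-fold lower, adjusted p = 1.52e-07) and −7.01 ± 0.47 in vehicle pools (51-fold lower with dim values at background, 1 of 4 titled GFP− arrays being above it, adjusted p = 2.23e-08). A fold given as "at least" sets at background only the fraction whose 4 arrays were all below it, and keeps the other fraction as measured.

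Olfr1213, a MOR233 receptor, differed by −7.55 ± 0.89 in odor and −6.74 ± 0.89 in vehicle pools (adjusted p = 1.11e-05 and 3.52e-05). Its titled GFP− arrays scattered, at 4.74, 5.40, 3.97 and 8.78 in odor and 5.01, 8.21, 6.54 and 9.13 in vehicle pools. The titled GFP+ arrays lay between 12.51 and 13.82 with odor and between 13.46 and 14.37 with vehicle, so the fractions stayed apart by over 3 log2 units. Of its titled GFP− arrays 1 of 4 with odor and 2 of 4 with vehicle were above background, and with the dim values at background the differences were −5.66 and −6.04. Olfr1176, a MOR174 receptor, differed by −6.09 ± 0.82 in odor and −5.73 ± 0.82 in vehicle pools (adjusted p = 4.6e-05 and 8.08e-05), and by −5.53 and −5.37 with dim values at background. Olfr1178, its neighbour and a MOR225 receptor, differed by −5.45 ± 0.38 and −5.51 ± 0.38 (adjusted p = 3.35e-08 and 2.74e-08). That is at least 24.8-fold lower in titled GFP− cells of vehicle pools, where its 4 arrays were below background.

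The remaining low members named were Olfr1184, Olfr1228, Olfr1182, Olfr1278, Olfr1208 and Olfr1163. In odor pools their differences ran from −5.44 ± 0.70 for Olfr1184 to −2.22 ± 0.49 for Olfr1163, and in vehicle pools from −4.77 ± 0.70 for Olfr1184 to −3.12 ± 0.49 for Olfr1208. All but Olfr1228 were below background on 2 or more of the 4 titled GFP− arrays in each treatment. With odor, where all 4 were, Olfr1184 was at least 8.84-fold, Olfr1208 at least 5.45-fold and Olfr1163 at least 1.33-fold lower, and with dim values at background Olfr1278 and Olfr1182 stood at −2.79 and −2.40. In the same setting the vehicle differences of Olfr1184, Olfr1278, Olfr1182, Olfr1208 and Olfr1163 were −3.74, −3.08, −2.57, −2.44 and −0.94. Olfr1228 kept signals well above background in both fractions, at 10.47 ± 0.99 in titled GFP− and 14.35 ± 0.40 in titled GFP+ odor arrays (SD, n = 4 each). Olfr1182 was the least certain: its titled GFP− arrays read 4.41, 7.75, 4.74 and 9.01 in odor and 4.16, 8.51, 5.81 and 8.85 in vehicle pools. Its difference of −3.82 ± 1.01 in odor pools (adjusted p = 0.0127) missed the threshold without odor replicate 1 or 3. That of −3.67 ± 1.01 in vehicle pools (adjusted p = 0.0185) missed it without vehicle replicate 1 or 3. With the pool as a block in limma's fit to all arrays, its adjusted p was 0.00282 in odor and 0.00368 in vehicle pools.

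At the high end stood Olfr1132, a MOR177 receptor a few genes from Olfr1140. It read 9.09, 9.58, 9.18 and 9.82 on odor arrays titled GFP−, against 5.35, 5.93, 5.39 and 5.74 on odor arrays titled GFP+. In vehicle pools it read 9.86, 9.50, 9.97 and 10.63 in the titled GFP− fraction, against 4.23, 6.18, 5.57 and 6.93 in the titled GFP+ fraction. All 8 arrays titled GFP+ were below background and all 8 titled GFP− above it. The difference was 3.81 ± 0.41 in odor pools (at least 4.45-fold, adjusted p = 4.26e-06) and 4.26 ± 0.41 in vehicle pools (at least 7.61-fold, adjusted p = 1.19e-06).

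Olfr1220, near the middle of the first run, was well above background in both fractions. It read 15.06, 14.88, 15.34 and 15.28 on odor arrays titled GFP−, against 10.67, 12.51, 11.37 and 12.20 on those titled GFP+, and 14.70, 13.55, 15.86 and 15.26 against 11.75, 10.18, 11.48 and 11.92 in vehicle pools. The fractions did not overlap, and the differences were 3.45 ± 0.47 in odor and 3.51 ± 0.47 in vehicle pools (10.9- and 11.4-fold, adjusted p = 5.7e-05 and 4.66e-05). Olfr1195, a MOR230 receptor, differed by 2.65 ± 0.32 and 3.21 ± 0.32 (adjusted p = 1.27e-05 and 1.45e-06), and Olfr1151 of MOR177 by 2.67 ± 0.22 and 2.97 ± 0.22 (adjusted p = 1.99e-07 and 5.67e-08).

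Olfr1205, Olfr1286, Olfr1153 and Olfr1242 completed the upper end in vehicle pools, at differences of 2.81, 2.57, 2.50 and 2.41, and stood at 2.42, 2.32, 2.16 and 2.02 in odor pools. Olfr1157, Olfr1134, Olfr1180 and Olfr1274 completed it in odor pools, at 2.87, 2.81, 2.66 and 2.45, and stood at 2.30, 2.27, 2.23 and 2.22 in vehicle pools. These 8 passed in both treatments, with adjusted p of 0.00369 or less. Of the titled GFP+ arrays of Olfr1286 1 of 4 was above background in each treatment, and with dim values at background it stood at 1.75 in odor and 1.99 in vehicle pools.

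**Figure D2:**
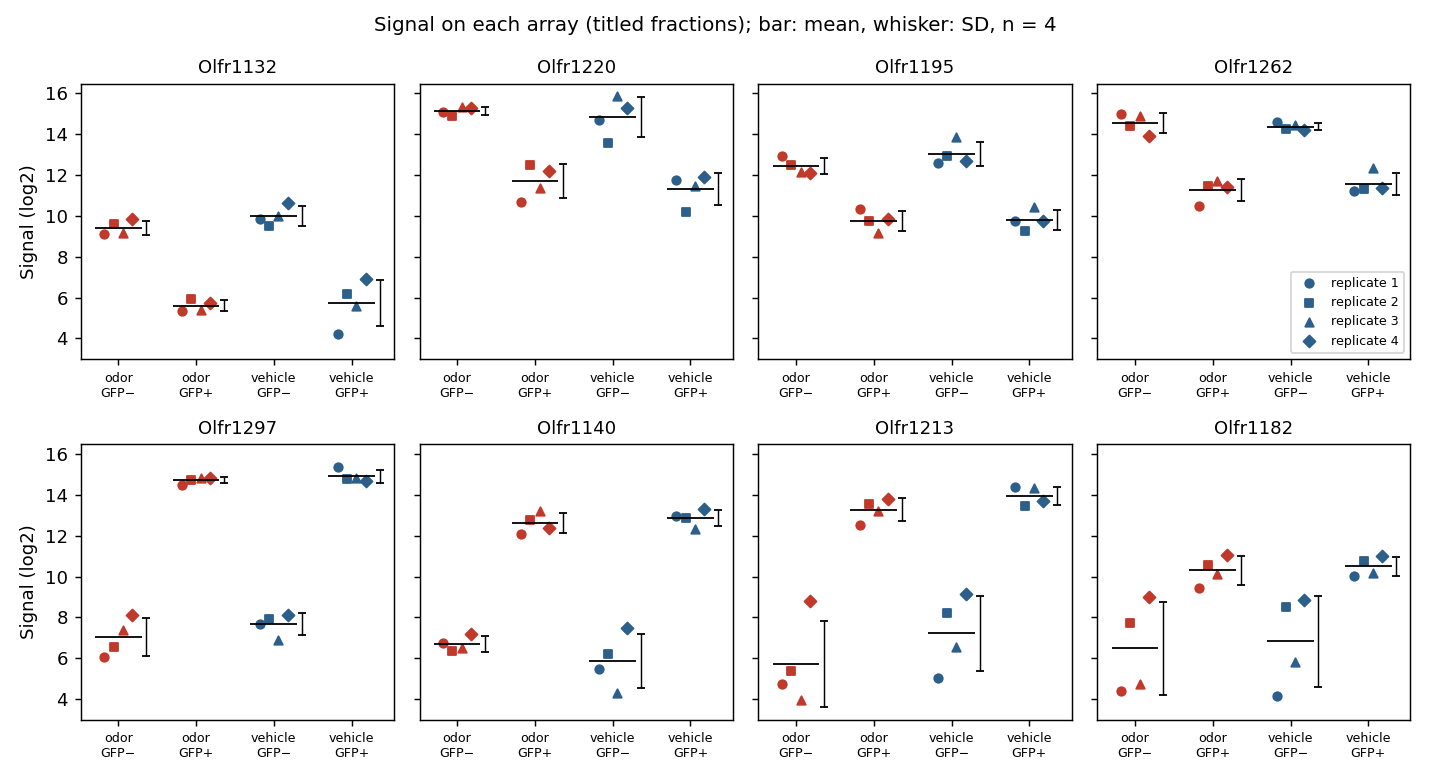
Log2 signal (y axis) on each of the 16 arrays for 4 high members (upper row) and 4 low members (lower row), with, from left to right and by title, GFP− and GFP+ cells of odor pools, then GFP− and GFP+ cells of vehicle pools. Points are arrays with a symbol per replicate number, bars are means and whiskers are SD (n = 4). The fractions are apart in all 8 panels, and the titled GFP− arrays of Olfr1213 and Olfr1182 scatter most, from 3.97 to 9.13 and from 4.16 to 9.01.

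Of the members, 139 have exactly 1 MOR family in RefSeq's synonyms, and the families were counted with the values already known. Beside the family counts, 12.2% of all tested features were higher and 9.98% lower in odor pools, and 7.05% and 9.82% in vehicle pools. Among receptors elsewhere 36.7% were higher and 19.3% lower in odor pools, and 32.1% and 21.4% in vehicle pools. No family was tested against these shares. MOR177 has 11 members near the start of the first run, 7 of them higher and 1 lower in titled GFP− cells, with odor and with vehicle. Olfr1135, Olfr1138 and Olfr1143 of this family were higher by 2.04, 2.26 and 2.33 in odor and by 1.67, 1.93 and 2.03 in vehicle pools. The family's median was 2.04 in odor and 1.67 in vehicle pools, and 1.22 and 1.67 with dim values at background. Olfr1140, between Olfr1138 and Olfr1143 on the chromosome, is the family's single low member.

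MOR225 and MOR230 interleave in the same stretch of the first run. Of 11 MOR225 members 8 were lower and 1 higher in odor pools, and 7 and 1 in vehicle pools, with medians of −3.0 and −2.96. Of 8 MOR230 members 5 were higher and 0 lower in both treatments, with medians of 1.32 and 1.51. No member of MOR230 was lower at an adjusted p under 0.05, and Olfr1183, its lowest, stood at −0.39 and −0.52. The MOR225 members above 0 were Olfr1179, at 0.99 and 1.10, and the called Olfr1180, at 2.66 ± 0.38 in odor and 2.23 ± 0.38 in vehicle pools. With arrays centred on the receptor median only 2 and 3 members of MOR230 passed upward, in odor and vehicle pools, while the medians of both families kept their signs under every scaling tried. With values below background set at it, the medians were −2.40 and −2.44 for MOR225 and 0.94 and 1.00 for MOR230.

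In the second run MOR245 and MOR248 interleave likewise. Of 14 MOR248 members 8 were higher and 2 lower in odor pools, and 8 and 1 in vehicle pools, with medians of 1.21 and 1.22, and 4 and 5 were higher with arrays centred on the receptor median. Of 21 MOR245 members 2 were higher and 7 lower in odor pools, and 3 and 7 in vehicle pools. Their medians were −0.42 and −0.30, and that in vehicle pools turned to 0.10 once each array was centred on its all-feature median. The lowest of this family were Olfr1278 at −3.76 and −3.53 and Olfr1310 at −3.40 and −2.76. With the pool as a block MOR225 had 2 higher and 9 lower in odor pools, MOR248 9 and 2 in vehicle pools, and MOR245 4 and 9 in odor pools.

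Other families were mixed or small. MOR233 (17 members) had 2 higher and 5 lower in odor and 3 and 4 in vehicle pools, MOR231 (14 members) 4 and 3 in both, and MOR174 (12 members) 4 and 2 in both. All 4 MOR228 members were higher in odor pools, and 3 of 4 in vehicle pools. MOR234 holds the adjacent receptors Olfr1261, Olfr1262 and Olfr1263, of which the last 2 were among the highest members.

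**Figure D3:**
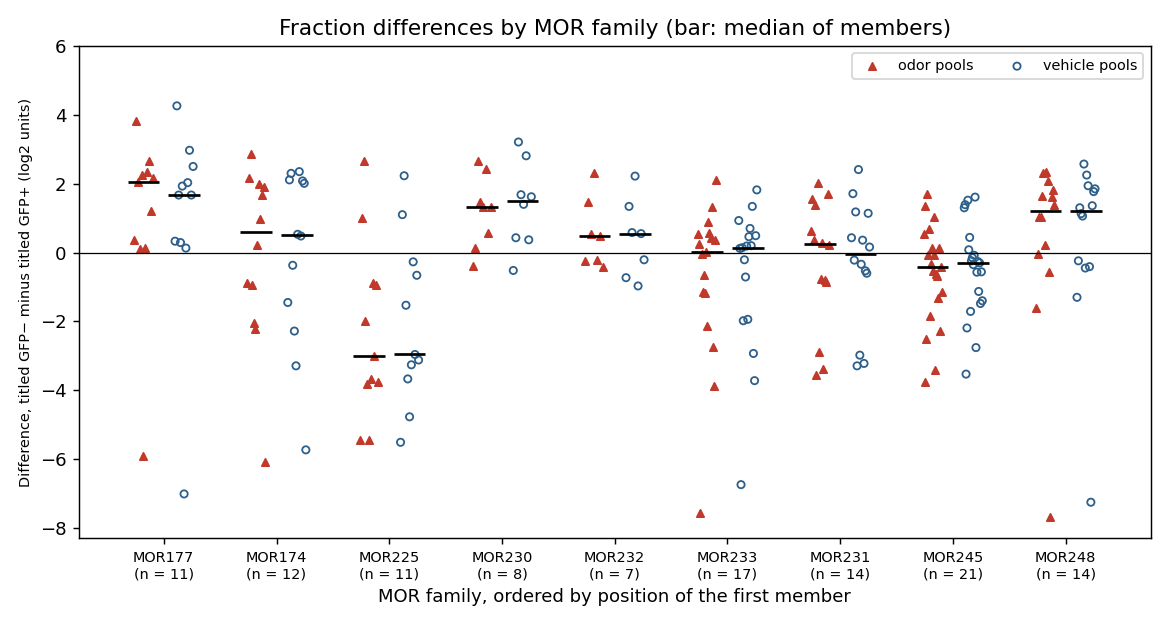
Fraction difference (y axis, log2 units, titled GFP− minus titled GFP+) of the members of 9 MOR families (x axis), filled triangles for odor pools and open circles for vehicle pools, each point 1 receptor and each bar the family's median. MOR225 lies mostly below 0 (median −3.0 in odor pools) and MOR230 mostly above it (1.32), although the 2 families interleave on the chromosome.

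Sequences just upstream of the annotated starts are shown for 3 sets of receptors, because they place closely similar sequences beside like and unlike fraction differences. They come from RefSeq's promoter windows on GRCm38.p6, each with 250 bases before and 50 after the annotated start, on the strand of the gene. Of the 135 windows of 133 members, 97 have their annotated start at an ATG, as all 7 windows printed here do, so a window need not hold the start of transcription. Capitals mark bases that do not align to the same base of the named partner. The first set is Olfr1262 (chr2:90002158-90002457 on the plus strand) and Olfr1263 (chr2:90014682-90014981 on the plus strand), adjacent MOR234 receptors that were both high.
Olfr1262: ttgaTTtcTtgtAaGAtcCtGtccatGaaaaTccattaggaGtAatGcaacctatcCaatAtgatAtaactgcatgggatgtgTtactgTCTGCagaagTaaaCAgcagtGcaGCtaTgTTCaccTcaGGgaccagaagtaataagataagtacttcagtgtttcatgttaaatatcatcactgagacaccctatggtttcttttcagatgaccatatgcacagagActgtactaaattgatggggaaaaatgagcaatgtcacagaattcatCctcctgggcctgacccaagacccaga
Olfr1263: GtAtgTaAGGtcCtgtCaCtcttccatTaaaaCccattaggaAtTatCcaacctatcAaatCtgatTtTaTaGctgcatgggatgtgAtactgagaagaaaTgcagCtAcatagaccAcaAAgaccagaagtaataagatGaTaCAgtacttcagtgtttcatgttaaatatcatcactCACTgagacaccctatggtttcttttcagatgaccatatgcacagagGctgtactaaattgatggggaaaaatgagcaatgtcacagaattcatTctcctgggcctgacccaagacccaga

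These 2 windows are 79.2% identical over the 250 upstream bases, with Olfr1263 the partner of Olfr1262 and the reverse. Olfr1262 read 15.00, 14.40, 14.87 and 13.93 on odor arrays titled GFP−, against 10.46, 11.48, 11.71 and 11.43 on those titled GFP+, a difference of 3.28 ± 0.30 (adjusted p = 6.07e-07), and its vehicle difference was 2.82 ± 0.30 (adjusted p = 2.95e-06). Olfr1263 differed by 2.88 ± 0.32 and 2.96 ± 0.32 (adjusted p = 5.12e-06 and 3.56e-06). The receptors thus differed in the same direction and by like amounts.

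The second set is Olfr1297 with Olfr1295 and Olfr1294, its neighbours on one side in the second run, chosen after their values were seen because their differences spread so widely. Their windows lie at chr2:111622023-111622322 on the minus strand, chr2:111565393-111565692 on the minus strand and chr2:111538238-111538537 on the minus strand. Capitals in Olfr1297 are against Olfr1295, and those in the other two against Olfr1297.
Olfr1297: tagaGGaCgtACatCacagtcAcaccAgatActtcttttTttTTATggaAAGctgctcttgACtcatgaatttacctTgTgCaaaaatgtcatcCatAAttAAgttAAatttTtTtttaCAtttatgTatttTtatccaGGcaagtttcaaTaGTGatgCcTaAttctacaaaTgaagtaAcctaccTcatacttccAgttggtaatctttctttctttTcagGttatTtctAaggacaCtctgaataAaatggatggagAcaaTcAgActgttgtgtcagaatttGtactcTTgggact
Olfr1295: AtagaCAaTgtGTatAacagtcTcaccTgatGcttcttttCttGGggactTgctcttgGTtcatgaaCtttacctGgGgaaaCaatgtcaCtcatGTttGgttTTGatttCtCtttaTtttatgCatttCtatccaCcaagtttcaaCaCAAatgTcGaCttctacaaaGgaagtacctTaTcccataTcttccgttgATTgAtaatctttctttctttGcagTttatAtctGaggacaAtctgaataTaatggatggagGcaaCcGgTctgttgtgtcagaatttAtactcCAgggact
Olfr1294: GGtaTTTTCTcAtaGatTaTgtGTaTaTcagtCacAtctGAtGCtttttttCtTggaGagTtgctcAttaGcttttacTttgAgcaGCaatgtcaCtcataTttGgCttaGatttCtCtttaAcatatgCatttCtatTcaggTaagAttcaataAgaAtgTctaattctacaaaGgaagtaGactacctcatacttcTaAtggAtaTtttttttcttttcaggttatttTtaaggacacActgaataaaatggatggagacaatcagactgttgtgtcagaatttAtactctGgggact

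The upstream bases of Olfr1297 are 73.2% identical to those of Olfr1295 and 70.8% to those of Olfr1294. The 3 receptors belong to MOR248 and follow each other on the chromosome. Beside the −7.68 of Olfr1297 in odor pools, Olfr1295 differed by −0.56 ± 0.39 (adjusted p = 0.312) and Olfr1294 by 2.07 ± 0.33 (adjusted p = 0.000276). In vehicle pools they stood at −7.25, −0.41 ± 0.39 (adjusted p = 0.493) and 1.94 ± 0.33 (adjusted p = 0.000481). Olfr1294 read 12.18, 10.77, 11.87 and 11.20 on odor arrays titled GFP−, against 9.33, 9.61, 9.02 and 9.79 on those titled GFP+. Its fractions were thus apart in the direction opposite to Olfr1297, and those of Olfr1295 overlapped.

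The third set is the most similar pair with values of their own, Olfr1173 (chr2:88274998-88275297 on the minus strand) and Olfr1168 (chr2:88184629-88184928 on the plus strand).
Olfr1173: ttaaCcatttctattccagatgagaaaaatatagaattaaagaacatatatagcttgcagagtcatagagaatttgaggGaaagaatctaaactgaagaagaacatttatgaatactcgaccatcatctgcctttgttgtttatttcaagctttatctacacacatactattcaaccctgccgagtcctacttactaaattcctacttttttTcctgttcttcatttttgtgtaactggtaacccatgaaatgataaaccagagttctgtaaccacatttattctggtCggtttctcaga
Olfr1168: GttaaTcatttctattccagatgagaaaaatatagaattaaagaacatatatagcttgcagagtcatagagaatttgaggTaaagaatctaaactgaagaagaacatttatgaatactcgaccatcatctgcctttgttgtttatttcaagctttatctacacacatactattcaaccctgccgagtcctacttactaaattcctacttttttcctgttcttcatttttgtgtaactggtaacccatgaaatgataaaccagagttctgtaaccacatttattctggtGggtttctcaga

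The pair is 98.4% identical over the 250 upstream bases. Olfr1168 was higher in the titled GFP− fraction by 1.67 ± 0.51 in odor (adjusted p = 0.0268) and 2.08 ± 0.51 in vehicle pools (adjusted p = 0.00856). Olfr1173 differed by 0.92 ± 0.52 (adjusted p = 0.226) and 0.47 ± 0.52 (adjusted p = 0.576), and passed with the pool as a block in odor pools (adjusted p = 0.0408). Whether the 2 receptors differ from each other was not tested, and so close a pair can share hybridisation. Over all 17 pairs of members with 70% identity or more and values of their own, the median gap between 2 members' fraction differences was 1.09 in odor and 0.98 in vehicle pools. Over all 8778 pairs of members with a window it was 1.94 and 1.91. Other close pairs were Olfr1283 and Olfr1287 (94.0% identical, with vehicle differences of 1.06 and −0.45), Olfr1251 and Olfr1253 (91.6%, at −0.53 and −0.60), Olfr1249 and Olfr1251 (88.8%, at 0.36 and −0.53), and Olfr1201 and Olfr1206 (88.0%, at 1.40 and 0.37). Olfr1271 and Olfr1272, also 88.0% identical, stood at −1.56 and 0.03. Olfr1287 was below background on every array and Olfr1201 on all 8 titled GFP+, and with dim values at background the vehicle difference of Olfr1201 was 0.39. Pairs share members, and these gaps are given as descriptions.

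Short motifs were searched in the 250 upstream bases on both strands. TAATTA, a homeodomain core that reads the same on both strands, was in 28.9% of the members' windows, 16.1% of the windows of other intact receptors and 4.8% of all promoters. TATAAA was in 54.1%, 36.8% and 12.4%. CCCNNGGG, a core form of Ebf sites, was in 2.2%, 2.7% and 11.8%. These sets differ in kind: 97 of 135 member windows have their start at an ATG, against 576 of 790 and 1915 of 32851. The windows with no ATG there number 38, 214 and 30936. Among them CCCNNGGG was in 7.9% (3 member windows), 6.5% and 12.2%. TAATTA was in 31.6%, 15.0% and 4.4% of them, and TATAAA in 52.6%, 28.0% and 11.4%. The motifs were searched apart from each other and can overlap. By call in odor pools, TAATTA was in 16 of 47 windows of higher members, 12 of 32 of lower members and 11 of 54 of the rest, and TATAAA in 21, 22 and 29. In vehicle pools TAATTA was in 15 of 47, 10 of 31 and 14 of 55, and TATAAA in 21, 22 and 29. A match describes letters in these windows, and the shares were not tested against each other.

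Adjacent members were compared to see whether neighbours on the chromosome had like fraction differences. The differences of adjacent members correlated at 0.098 in odor and 0.054 in vehicle pools over 112 neighbour pairs of the first run, and at 0.174 and 0.159 over 34 pairs of the second. Neighbours share members and arrays, so these are descriptions. Both members of a neighbour pair were called in the same direction in 24 of 146 pairs in odor and 22 in vehicle pools, and in opposite directions in 18 in each. The median gap between neighbours was 1.43 in odor and 1.59 in vehicle pools within a MOR family (81 pairs) and 1.64 and 1.82 between families (48 pairs). The first run had 40 higher and 23 lower members of 113 in both treatments, and the second 10 and 9 of 35 in odor and 11 and 8 in vehicle pools.

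The assay's question is whether odor moved a receptor between the fractions, and none of the members passed this test. The fraction differences in odor and vehicle pools, which come from different mice and different arrays, correlated at r = 0.985 and rho = 0.98 across the 148 members. The same correlation was 0.955 across all tested features. Of the members 77 (52.0%) were called in both treatments, all in the same direction, where 12.5% of all tested features, 50.0% of the lower-numbered chromosome 2 receptors and 48.9% of the other receptors were. They were 48 higher (32.4%) and 29 lower (19.6%), where 4.24% and 8.3% of all features passed. The remaining members were called in odor pools only (5), in vehicle pools only (5) or in neither (61). The members called only with odor were Olfr1200, Olfr1217 and Olfr1277 (lower) and Olfr1231 and Olfr1265 (higher). Those called only with vehicle were Olfr1137 and Olfr1258 (lower) and Olfr1188, Olfr1211 and Olfr1309 (higher), with Olfr1188 below background on every array. With the pool as a block, Olfr1231 (adjusted p = 0.0625) and Olfr1137 (adjusted p = 0.0615) no longer passed. With the block Olfr1265 and Olfr1277 passed in vehicle pools too (adjusted p = 0.00961 and 0.0333), and Olfr1211 and Olfr1309 in odor pools too (adjusted p = 0.0488 and 0.00787). A call in one treatment and not the other does not show a difference between them.

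**Figure D4:**
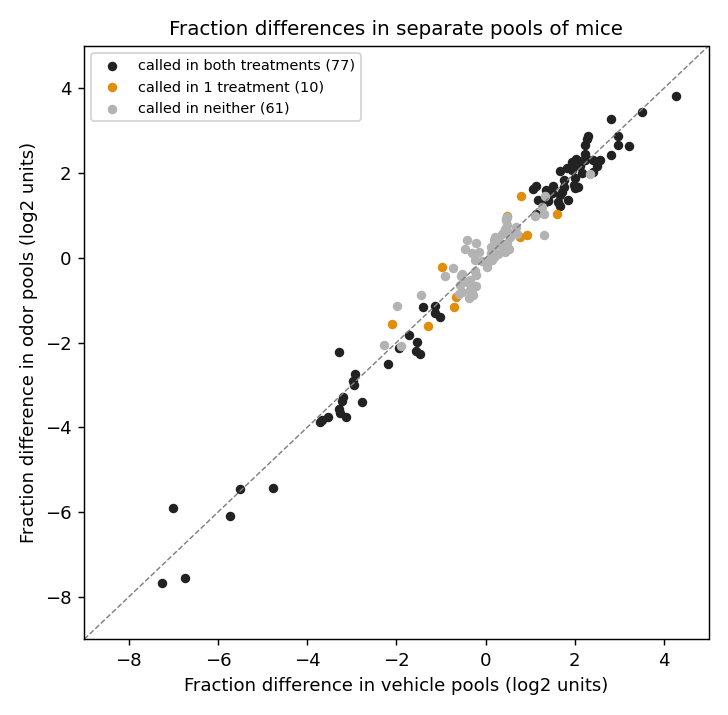
Fraction difference of each of the 148 receptors in odor pools (y axis) against vehicle pools (x axis), both in log2 units, with the dashed line marking equal values. Points are shaded by call: 77 in both treatments, 10 in 1 treatment and 61 in neither, and all lie near the line (r = 0.985).

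The interaction, the fraction difference in odor pools minus that in vehicle pools, was called in 0 of 148 members by limma, and in 0 of all tested features. At an unadjusted p under 0.05 it held 0 members, where 3.78% of all features lay, and with the pool as a block 5 members (3.38%), where 5.37% of all features lay. The estimates ran from −0.81 to 1.09 with a median SE of 0.50, and 2 members exceeded 1 in size, Olfr1140 and Olfr1163. In the fit without the pool as a block, the 95% intervals of 20 members lay within −1 to 1. Those of 84 reached 1 or above and those of 93 reached −1 or below. A shift of 1 log2 unit was thus not excluded in most members by these intervals. Intervals with the block are not given here. By exact permutation of the 4 odor and 4 vehicle pool differences, two-sided, whose smallest possible p is 0.0286, no member reached an unadjusted p under 0.05 either.

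**Figure D5:**
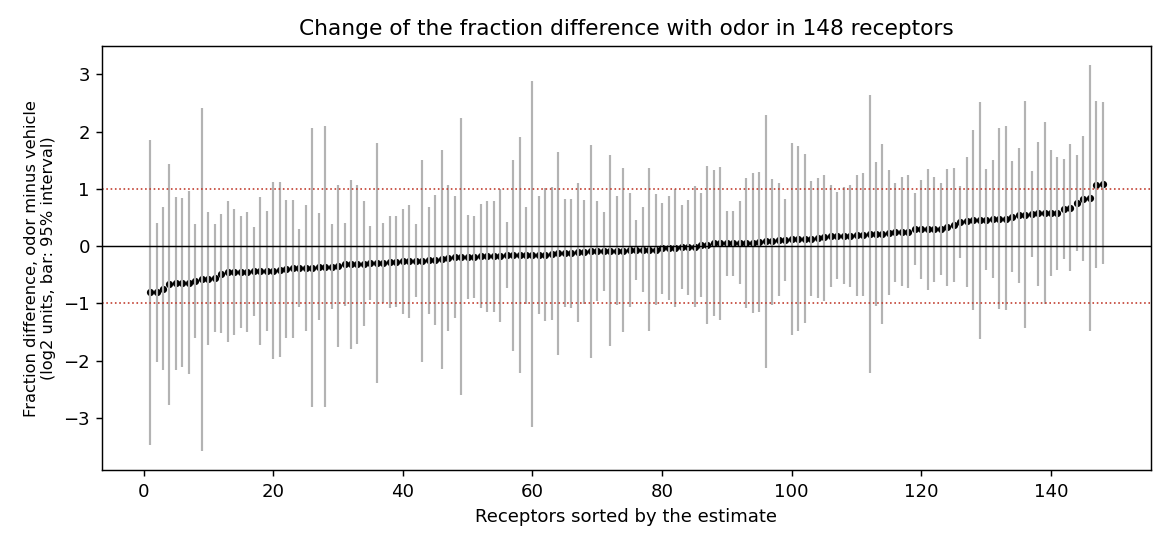
Fraction difference in odor pools minus that in vehicle pools (y axis, log2 units) for each of the 148 receptors, sorted by the estimate (x axis). Points are estimates, bars are 95% intervals of the limma fit, and dotted lines stand at −1 and 1. The estimates run from −0.81 to 1.09, and the intervals of most members cross the dotted lines.

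The smallest interaction p was that of Olfr1258, a MOR232 receptor, at 0.75 ± 0.40 (95% interval −0.09 to 1.59, p = 0.0751, adjusted p = 0.9997, and 0.229 by exact permutation). It read 12.10, 10.90, 11.28 and 11.69 on odor arrays titled GFP−, against 11.63, 11.54, 11.97 and 11.71 on those titled GFP+. In vehicle pools it read 10.99, 10.39, 10.29 and 11.61 in the titled GFP− fraction, against 11.51, 12.16, 11.81 and 11.69 in the titled GFP+ fraction. The fractions overlapped in odor pools and, through the fourth pool, in vehicle pools too. Olfr1140 followed at 1.09 ± 0.67, Olfr1145 at 0.83 ± 0.52 on arrays all below background, Olfr1254 at 0.56 ± 0.35 and Olfr1265 at 0.65 ± 0.41, none of them past the threshold. Of all members, those whose 16 values correlated best with Olfr1258 were Olfr1250 (r = 0.735, rho = 0.676), Olfr1252 (r = 0.698, rho = 0.603) and Olfr1228 (r = 0.677, rho = 0.688), which were lower in titled GFP− cells of vehicle pools at −3.22, −3.20 and −3.72.

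Odor against vehicle within a fraction gave no calls either. In the titled GFP− fraction limma called 0 of 148 members, with 4 at an unadjusted p under 0.05, where 4.11% of all features lay. With the replicate number as a block these were 8 (5.41%), where 5.73% of all features lay. The 5 with the smallest p were Olfr1211 at −0.66 ± 0.23, Olfr1258 at 0.67 ± 0.28, Olfr1241 at −0.64 ± 0.27, Olfr1260 at −0.54 ± 0.24 and Olfr1221 at 1.42 ± 0.69, each with an adjusted p of 0.9993. Olfr1211 read 11.38, 11.22, 11.44 and 12.06 on odor arrays titled GFP−, against 12.07, 11.81, 12.72 and 12.14 on vehicle arrays titled GFP−, and these overlapped. In the titled GFP+ fraction limma called 0 members, with 5 at an unadjusted p under 0.05, where 10.3% of all features lay, and with the block 11 (7.43%), where 13.2% lay. Olfr1265 stood at −0.71 ± 0.29, Olfr1239 at −0.79 ± 0.36, Olfr1314 at −0.46 ± 0.21 and the pair Olfr1506 and Olfr1565 at −0.41 ± 0.19, with adjusted p of 0.428 to 0.481. Both comparisons leaned below 0, with 108 of 148 estimates negative in the titled GFP− and 101 in the titled GFP+ fraction. The median estimates were −0.17 and −0.13, against 0.00 and −0.03 over all tested features. Other receptors leaned the same way, with medians of −0.11 and −0.33 over the lower-numbered chromosome 2 receptors and −0.06 and −0.22 over those elsewhere. The 95% intervals of 69 and 68 members lay within −1 to 1.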

How the data were processed

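Per the labels' protocols, sorted cells of pools of 3 mice gave 50 to 100 ng of total RNA for biotinylated cRNA on Clariom S arrays, 16 in all. The deposited values were used as log2 signals, a unit read from their range of 1.77 to 19.3; the submitters' processing notes name Affymetrix Expression Console, and the background correction and normalization are not given in the sources used here. Values were used on the deposited scale. Of 28846 entries, 19572 carried 1 gene symbol and were tested.

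A limma model (3.58.1, R 4.3.3) with a mean for each of the 4 groups gave two-sided moderated tests of 5 comparisons: the fraction difference (titled GFP− minus titled GFP+) in odor and in vehicle pools, the change of that difference with odor (the interaction), and, per fraction, odor minus vehicle. P-values were adjusted by Benjamini-Hochberg over all 19572 features at 0.05. SEs are those of this model, and SDs those of 4 arrays. No array was dropped. The number of arrays, not read depth, limits the precision. The script was tested on simulated data. Levels were not compared between probe sets of different receptors.

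For each fraction comparison the text names the 10 highest and 10 lowest called members. In the remaining comparisons it names the 5 with the smallest p, as not passing. It also names the end members of each run and 6 most similar pairs; a pair tied with the sixth is given too. These pairs were planned on protein identity and were taken on upstream identity instead (edlib 1.3.9.post1), as no protein table was used here. Members and lists were chosen with earlier results of these data known, and the background level after the control values were seen.

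The pool served as a block in an alternative fit, since both fractions of a pool come from the same mice. Deviations of such pairs from their group means correlated at 0.096 to 0.337, and those of same-numbered odor and vehicle arrays at 0.147 to 0.547, over all tested features. Other alternatives were renewed quantile normalization, centring on 2 medians, an intensity trend, a filter on dim features and leaving out each pool. Setting values below an array's background level at that level was added after seeing the data, with no test.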

Additional observations from a re-analysis of the deposited data

Results flagged for a closer look

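Among the 49 named members, 196 groups of 4 arrays were examined for 1 array far from the other 3, and 13 had one; chance alone marks about 1 in 20 groups. In odor pools titled GFP−, replicate 1 stood apart for Olfr1173 (8.33, others 9.23 to 9.39) and Olfr1242 (11.85, others 10.64 to 10.81). In odor pools titled GFP+, replicate 1 was low for Olfr1157 (7.93, others 9.82 to 9.94) and for Olfr1506 and Olfr1565, which share their values (5.84, others 6.70 to 6.85), and replicate 4 was high for Olfr1265 (8.06, others 6.85 to 7.04). In vehicle pools titled GFP−, replicate 3 was high for Olfr1130 (10.55, others 9.85 to 9.90) and replicate 2 low for Olfr1253 (12.49, others 12.68 to 12.70). In vehicle pools titled GFP+, replicate 4 was high for Olfr1130 (8.07, others 7.82 to 7.85), replicate 3 high for Olfr1262 (12.33, others 11.21 to 11.38) and Olfr1283 (10.31, others 9.38 to 9.44), and replicate 1 low for Olfr1506 and Olfr1565 (6.76, others 7.01 to 7.06). Odor replicate 1 held 5 of the 13 arrays, 2 in the titled GFP− and 3 in the titled GFP+ fraction.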

How the results depend on the processing

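The counts of called members stayed within 1.5 times the reported ones under every alternative run. With the pool as a replicate block, 59 members were higher and 37 lower in odor pools, and 57 and 32 in vehicle pools; the block ended the calls of Olfr1231 in odor and of Olfr1137 and Olfr1248 in vehicle pools (adjusted p = 0.0625, 0.0615 and 0.0668). Leaving out 1 pool gave 44 to 51 higher and 26 to 34 lower in odor pools, and 41 to 53 and 23 to 33 in vehicle pools. Quantile normalization gave 54 and 33 (odor) and 55 and 28 (vehicle), and the dim filter, which kept 133 members, 49 and 31, and 49 and 30. Centring on the median of tested features, which put the median of all features at 0.44 (odor) and 0.54 (vehicle), gave 67 and 30, and 71 and 28. Centring on the receptor median put it at −0.33 and −0.14. The shares of all features called under these alternatives are not given here, and the shares in the Results belong to the main fit. The interaction and both odor comparisons kept 0 calls throughout. Over 14 alternatives, 35 members were higher and 24 lower in odor pools in every one, and 37 and 21 in vehicle pools. Among the 55 results named by the rule only Olfr1182 lost calls: −3.42 and −3.30 without odor replicate 1 or 3 (adjusted p = 0.0576 and 0.073), and −2.94 and −3.43 without vehicle replicate 1 or 3 (adjusted p = 0.0932 and 0.0906); none reversed. Members above background on all arrays of a group numbered 126, or 88 and 126 at the 95th and 80th percentiles of negative controls. Setting values below background at it, chosen after seeing the data, was applied to 42 named differences with dim arrays: 26 moved by less than the SD of the pool differences, 16 by more, and none reversed.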

Other observations

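Arrays with the same replicate number carried like deviations in the members in the titled GFP− fraction, although odor and vehicle pools held different mice. In the titled GFP+ fraction only numbers 1 and 4 did. Across the 148 members, deviations from the group means of same-numbered odor and vehicle arrays correlated at 0.386 to 0.763 in the titled GFP− and at 0.1 to 0.657 in the titled GFP+ fraction. For arrays with different numbers the correlations were −0.416 to 0.167 and −0.481 to 0.142, values that the removal of group means pushes below 0. In the titled GFP+ fraction numbers 2 and 3, at 0.101 and 0.1, lay within the range of different numbers. Numbers 1 and 4, at 0.32 and 0.657, lay above it. Olfr1182 showed like deviations in the titled GFP− fraction. It read 4.41, 7.75, 4.74 and 9.01 in odor replicates 1 to 4, and 4.16, 8.51, 5.81 and 8.85 in vehicle replicates 1 to 4. Olfr1176 read 6.98, 5.17, 9.96 and 7.14 in odor and 8.70, 6.06, 9.48 and 6.85 in vehicle replicates of this fraction. Its order differed from that of Olfr1182, but replicate 2 was lowest and replicate 3 highest in both treatments. Members, arrays and pools are shared among these correlations, which are given with no test, and what a replicate number stands for is not stated in the labels.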
